A study of Rattus norvegicus with 6 samples.

Results

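The enzymes described here dispose of reactive oxygen species and keep protein thiols reduced, and they were examined in cultured neural progenitors of the rat. The group takes every gene whose symbol begins as a superoxide dismutase (Sod), glutathione peroxidase (Gpx), peroxiredoxin (Prdx), thioredoxin (Txn) or glutathione transferase (Gst). To these are added the genes of glutathione synthesis and reduction (*Gclc*, *Gclm*, *Gss* and *Gsr*), catalase (*Cat*), the quinone reductase *Nqo1* and the heme oxygenases (Hmox). *Txnip*, an inhibitor of thioredoxin, was left out of the group. By this rule 64 of the 17337 gene names in the tables were members. The cells came from cortices of Sprague Dawley rats of either sex at embryonic day 14 and were expanded with bFGF and EGF in a neural supplement (StemPro) until the second passage. They were untreated, carried no engineered allele and were not sorted, and there was 1 condition. Whether cells of several embryos were pooled was not given in the sources used here. Per the sample labels, biological replicate A was read as the technical libraries A1 and A2 and biological replicate B as B1 and B2, all made from polyA RNA. Column names in a supplement of the study can also be read as pairing A1 with B1 and A2 with B2, under which every difference between A and B given here would change. The values favour the labels for A more plainly than for B: the median absolute log2 difference over the 51 genes above 1 FPKM was 0.12 between A1 and A2, 0.27 between A1 and B1 and 0.29 between A2 and B2, whereas it was 0.23 both between B1 and B2 and between A2 and B1. Rank correlations (Spearman) over all genes were 0.992 for A1 with A2 and 0.983 for B1 with B2. They were 0.984 for A1 with B1 and 0.974 for A2 with B2. Single genes went both ways and do not decide the grouping. *Fabp7*, a marker of neural progenitors, paired by the labels. It was at 16800 and 18557 FPKM in A1 and A2 against 6520 and 5485 in B1 and B2. *Sod3* had B1 (8.23 FPKM) nearer to A1 and A2 (4.87 and 5.49) than to B2 (25.2). *Slc7a11* did too, at 14.5 in B1, 19.7 and 21.3 in A1 and A2, and 60.8 in B2.

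Superoxide dismutases turn superoxide into hydrogen peroxide, which catalase, the glutathione peroxidases and the peroxiredoxins then remove. The peroxidases draw electrons from glutathione or from thioredoxin, which glutathione reductase and the thioredoxin reductases recharge at the expense of NADPH, while glutathione transferases couple glutathione to reactive lipids and drugs. Many of these genes are known targets of the transcription factor NRF2 (encoded by *Nfe2l2*), which is held back by KEAP1 and acts through the antioxidant response element of their promoters.

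The core of that element can be written TGACNNNGC. In windows of 300 bases around the annotated start (250 before it and 50 after it, RefSeq, GRCr8), searched on both strands, it occurred in 17 of the 44 genes of the group with a window and an average level of 1 FPKM or more, or 38.6% (95% Wilson interval 25.7 to 53.4). FPKM, the fragments of a gene scaled to transcript length and library depth, is the measure of mRNA level used throughout. The same core occurred in 13.1% of all 27457 genes with a window and in 15.3% of the 7976 of these that reached 1 FPKM on average. The genes of the group include neighbours of 1 family and are not independent, so the interval is not a test against these shares. In the 250 bases before the start alone, it was found in 12 of the 44 genes (27.3%) and in 13.2% of the 7976. A longer form, TGACTCAGC, was found in *Gstp1* and *Prdx1* alone among the 44 genes (4.55%) and in 0.401% of the 7976. These matches describe letters, and binding of NRF2 was not measured. Of the 64 genes 55 had a window, and the 9 without one were *Gpx8*, *Gsr*, *Gstm6l*, *Gstt1*, *Gstt2*, *Hmox1*, *Hmox2-ps1*, *Prdx6* and *Sod3*.

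Of the genes with a match, 4 are shown because each stands for a different step of the pathway: a peroxiredoxin, a glutathione transferase, the modifier subunit of glutamate-cysteine ligase and a thioredoxin reductase. Each stretch reads 5′ to 3′ on the strand of the gene, ends before its annotated start and has the core in capitals, as TGACNNNGC or its reverse complement.
*Prdx1* (chr5:135383735-135383815, plus strand, core 135 bases before the start): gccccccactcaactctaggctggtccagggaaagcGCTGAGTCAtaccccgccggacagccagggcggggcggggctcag
*Gstp1* (chr1:210769722-210769802, minus strand, core 61 bases before the start): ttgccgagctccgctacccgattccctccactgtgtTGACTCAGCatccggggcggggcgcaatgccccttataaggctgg
*Gclm* (chr2:213031927-213032007, plus strand, core 172 bases before the start): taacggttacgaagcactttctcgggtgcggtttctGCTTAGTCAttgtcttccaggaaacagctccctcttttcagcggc
*Txnrd1* (chr7:22755938-22756018, minus strand, core 78 bases before the start): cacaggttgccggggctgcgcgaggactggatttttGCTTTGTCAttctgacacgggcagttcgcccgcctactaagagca
No match to TGACNNNGC was found in the window of *Nqo1*.

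As a group these mRNAs were abundant. Of the 64 genes, 51 averaged at least 1 FPKM (79.7%, against 60.5% of all gene names), 44 had at least 10 FPKM (68.8% against 38.3%) and 14 had at least 100 FPKM (21.9% against 6.14%). The median FPKM was 20.5 over the 64 genes and 3.83 over all gene names. Together they made up 0.846% (A1), 0.892% (A2), 0.901% (B1) and 0.994% (B2) of the transcripts, by TPM. All means are of the replicates, with the technical libraries averaged first, and SDs are over the 2 replicates. Library B2 was shallower than the others, with a read coverage of 6.83 for each FPKM against 22.7 to 24.4. The lowest coverage of any of the 51 genes in B2 was 14.1-fold (*Gsto2*). With 2 replicates of 1 condition no test between groups could be made, and differences are given as descriptions of these libraries. The spread of the technical libraries, given beside some of them, holds no variation between cultures.

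By family, the peroxiredoxins had the highest summed level, 1780 ± 148 FPKM over 6 genes (SD, n = 2). The glutathione transferases followed with 1171 ± 29.1 over 23 genes. The thioredoxins and thioredoxin reductases reached 639.6 ± 120, the glutathione peroxidases 636 ± 84.2, the superoxide dismutases 490.5 ± 29.9 and the remaining proteins with thioredoxin domains 468 ± 32.1. Catalase reached 94.2 ± 10.3, glutathione synthesis and reduction 77.9 ± 12.4, and *Nqo1* with the heme oxygenases 61.3 ± 13.7. Peroxiredoxins and glutathione transferases were the first and second family in all 4 libraries.

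**Figure D1:**
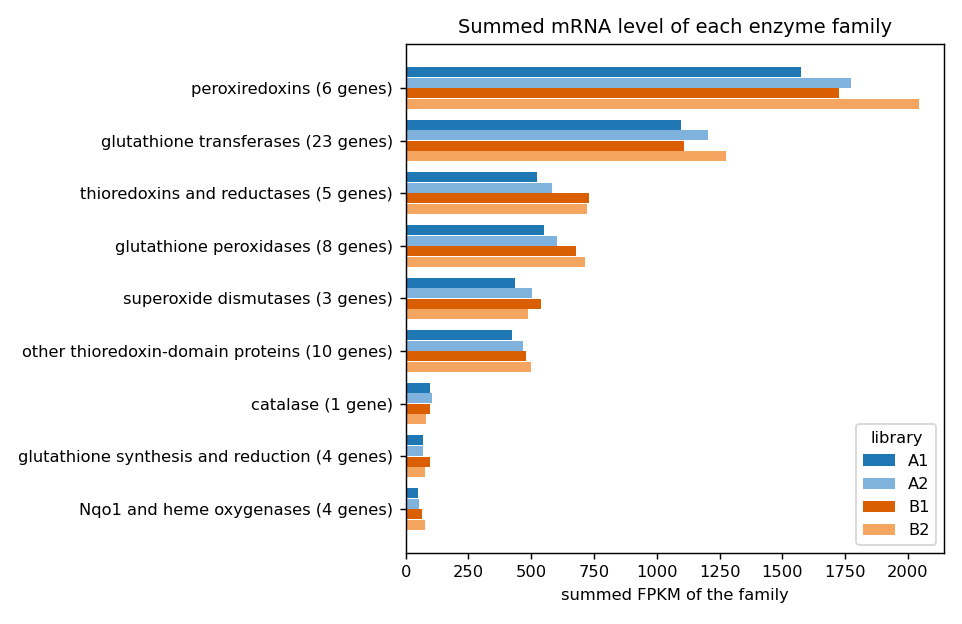
Summed FPKM of each enzyme family (horizontal bars from 0) in the libraries A1, A2, B1 and B2, with the number of genes of each family. The peroxiredoxins sum to between 1576 and 2044 FPKM, above every other family in each library, and the lowest bars are those of *Nqo1* with the heme oxygenases, between 49.0 and 75.4.

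Among the enzymes that act on superoxide, *Sod1*, the cytosolic copper and zinc enzyme, dominated. Its libraries A1, A2, B1 and B2 held 416, 481, 512 and 442 FPKM, and the ranges of the replicates overlapped. *Sod2*, the manganese enzyme of mitochondria, had 15.03, 16.2, 18.2 and 18.2 FPKM in the same order. The ratio of *Sod1* to *Sod2* stayed between 24.3 and 29.7 in the 4 libraries. *Sod3*, the secreted form, was at 4.87, 5.49, 8.23 and 25.2 FPKM, so both B libraries lay above both A libraries but B2 lay far above B1. *Cat*, the peroxisomal enzyme that splits hydrogen peroxide without a partner, was at 97.8, 105, 94.7 and 79.1 FPKM.

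*Prdx2*, a cytosolic peroxiredoxin that takes electrons from thioredoxin, had the highest level of the whole group and ranked 101 among all gene names. Its FPKM was 805, 908, 841 and 1029 in A1, A2, B1 and B2, a mean of 896 ± 55.1 (SD, n = 2), and its lowest library lay above the highest of *Sod1*, the next gene in order. *Prdx1*, its close relative in the cytosol, was at 349, 396, 398 and 499.5 FPKM. The ratio of *Prdx2* to *Prdx1* was 2.06 to 2.31 over the libraries. *Prdx5*, found in mitochondria, peroxisomes and cytosol, was at 171, 193, 176 and 189 FPKM. *Prdx6*, which has a single active cysteine and uses glutathione, was at 148, 167, 172 and 189 FPKM. These 4 genes all exceeded 100 FPKM in every library. *Prdx4*, the form of the endoplasmic reticulum, was at 71.6, 76.7, 107 and 107 FPKM, with both B libraries above both A libraries. *Prdx3*, the form that is confined to mitochondria, was lowest at 30.8, 33.8, 31.9 and 31.3 FPKM, which places *Prdx2* 26.1 to 32.9 times above it.

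The glutathione peroxidases were led by *Gpx4*, the selenoenzyme that reduces lipid hydroperoxides in membranes, at 336, 366, 349 and 298 FPKM. All of its libraries lay above all of those of *Gsta4*, the gene next in order. *Gpx8*, a membrane protein of the endoplasmic reticulum, was at 120, 130, 163 and 184 FPKM. *Gpx1*, the abundant cytosolic selenoenzyme of most tissues, was at 69.0, 77.8, 120 and 146 FPKM. For these last genes both B libraries exceeded both A libraries. *Gpx7*, also of the endoplasmic reticulum, was at 20.7, 22.9, 41.2 and 82.1 FPKM, and *Gpx3*, the secreted plasma form, at 4.596, 5.59, 3.74 and 2.12. *Gpx2*, known from the gut epithelium, had at most 0.205 FPKM in any library. *Gpx5* was above 0 in A2 only, at 0.00777 FPKM, and *Gpx6* was listed at 0 in all 4 libraries.

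*Txn1*, the cytosolic thioredoxin that recycles peroxiredoxins, was at 346, 393 (A1, A2), 534 and 518 (B1, B2) FPKM. *Txn2*, its mitochondrial counterpart, was at 126, 136, 137 and 151. The ratio of *Txn1* to *Txn2* was 2.76 to 2.89 in A and 3.44 to 3.90 in B. The reductases that recharge them were far lower. *Txnrd1*, the cytosolic one, was at 37.6, 40.3, 43.5 and 40.5 FPKM. Its annotated span shares 1325 bp with *Eid3* on the same strand, which was at 0.277 to 1.44 FPKM. *Txnrd2*, of mitochondria, was at 10.5, 9.91, 11.7 and 8.12 FPKM, and *Txnrd3*, known from testis, at 4.28, 4.51, 2.83 and 2.15. *Txn1* mRNA was thus 9.20 to 12.8 times that of *Txnrd1*.

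Of the other 10 proteins with thioredoxin domains, 8 had a mean of at least 1 FPKM. *Txndc5*, a protein disulfide isomerase of the endoplasmic reticulum, had the highest mean, 98.2 ± 27.4 FPKM (SD, n = 2). *Txndc12*, of the same compartment, followed at 92.8 ± 2.01, though it shares 1523 bp of its span with *Kti12* on the same strand (18.1 to 21.1 FPKM). *Txnl1*, a cytosolic partner of the proteasome, was at 78.4 ± 0.0988. The others, in falling order, were *Txndc15* at 69.8, *Txndc17* at 47.7, *Txndc9* at 47.3, *Txndc11* at 18.2 and *Txnl4b* at 15.5 FPKM. The sperm thioredoxins were at or near 0: *Txndc2* had at most 0.0545 FPKM and *Txndc8* was listed at 0 in all libraries.

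The genes that make and recycle glutathione lay close together. *Gclc*, the catalytic subunit of the rate-limiting glutamate-cysteine ligase, was at 16.5, 15.9, 22.1 and 19.6 FPKM. *Gclm*, its modifier subunit, was at 18.2, 19.6, 35.8 and 22.02, and B1 stood above the other libraries. The ratio of *Gclm* to *Gclc* was 1.10 to 1.62. *Gss*, glutathione synthetase, was at 16.95, 18.6, 20.7 and 21.97 FPKM, and *Gsr*, glutathione reductase, at 16.3, 16.3, 16.9 and 14.2. All 4 means fell between 15.9 and 23.9 FPKM.

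*Nqo1*, a quinone reductase often read as a marker of NRF2 activity, was at 14.7, 16.7, 18.4 and 19.3 FPKM. *Hmox2*, the constitutive heme oxygenase, was at 26.7, 28.8, 31.7 and 38.3 FPKM. Its span lies wholly within the listed span of *Ubald1* on the opposite strand (48.3 to 57.9 FPKM), a span of the whole locus and not of its exons, and whether the pair shares reads was not tested. *Hmox1*, the form induced by heme and oxidants, was at 7.62, 8.63, 16.5 and 17.8 FPKM. The ratio of *Hmox2* to *Hmox1* was 3.34 to 3.50 in A and 1.92 to 2.15 in B. The relict *Hmox2-ps1* had at most 0.0575 FPKM.

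**Figure D2:**
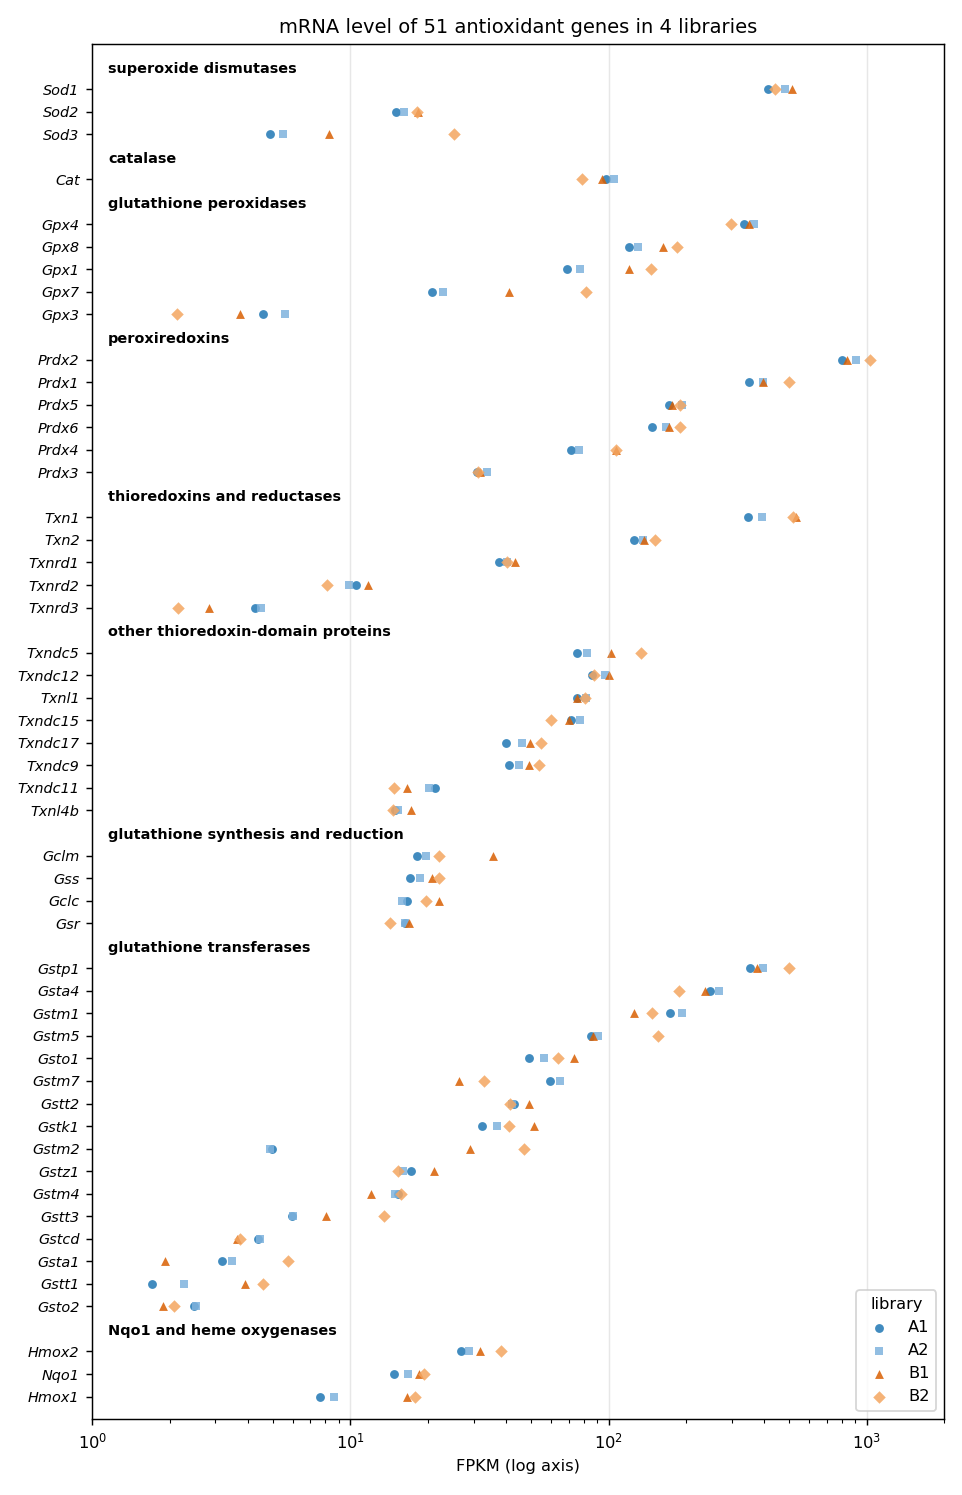
FPKM (log axis) of the 51 genes averaging at least 1 FPKM, by enzyme family and in falling order of the mean within it, with 1 symbol for each library (A1, A2, B1 and B2). Most genes show the 4 symbols close together, as for *Prdx3* at 30.8 to 33.8 FPKM, whereas *Gstm2* spreads from 4.87 to 47.2.

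The glutathione transferases were the largest family, and 16 of its 23 genes had a mean of at least 1 FPKM. *Gstp1*, the pi class enzyme, was at 352, 396, 376 and 500 FPKM. *Gsta4*, an alpha class enzyme that acts on 4-hydroxynonenal, a product of lipid peroxidation, was at 248, 267, 237 and 187 FPKM. Its B libraries both lay below its A libraries. *Gsto1* of the omega class had a mean of 60.5 ± 11.2 FPKM (SD, n = 2), *Gstt2* of the theta class 44.0 ± 2.16, *Gstk1* of the kappa class 40.5 ± 8.03 and *Gstz1*, which isomerizes maleylacetoacetate, 17.4 ± 1.10. The remaining genes of these classes above 1 FPKM were *Gstt3* at 8.34, *Gsta1* at 3.58, *Gstt1* at 3.12 and *Gsto2* at 2.23 FPKM. *Gstcd*, which encodes a protein with a transferase-like C-terminal domain and belongs to none of these classes, entered through its symbol and was at 4.05 FPKM. Below 1 FPKM were *Gsta3* at 0.332 and *Gsta2* at 0.0326, while *Gsta5* and *Gstt4* were listed at 0 in all libraries. *Gsta2* and *Gsta5* share 8799 bp of span on the same strand, and the handling of reads that match several genes was not stated, so the split within the alpha and mu classes is uncertain.

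The mu class genes sit side by side on chromosome 2 of rn6, from *Gstm5* at 210685338 to the end of *Gstm4* at 210839242. *Gstm1* was at 173 and 193 FPKM in A1 and A2 and at 125 and 147 in B1 and B2. *Gstm5*, the outermost gene and the only one of the cluster on the plus strand, was at 85.3, 91.0, 87.0 and 155 FPKM, with B2 apart from the rest. *Gstm4*, at the other end, had a mean of 14.5 ± 0.879 (SD, n = 2). The neighbours *Gstm6* and *Gstm3* had 0.374 and 0.167 FPKM, and *Gstm6l* was listed at 0.

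Within this cluster 2 genes exchanged their order between the replicates. *Gstm7* was at 59.6 and 65.1 FPKM in A1 and A2 and at 26.3 and 32.9 in B1 and B2. *Gstm2* was at 4.96 and 4.87 FPKM in A1 and A2 and at 29.0 and 47.2 in B1 and B2. *Gstm7* was therefore 12.0 and 13.4 times *Gstm2* in the A libraries and 0.906 and 0.696 times in the B libraries. *Gstm1* was 34.9 and 39.7 times *Gstm2* in A and 4.32 and 3.11 times in B. In both pairs the replicates did not overlap. The A libraries were alike, whereas the B libraries differed more, with *Gstm2* at 29.0 FPKM in B1 and 47.2 in B2. In B1 *Gstm7* and *Gstm2* were close, at 26.3 and 29.0 FPKM, so the exchange of order was clearer in B2. The split of reads among the mu class genes is uncertain, as stated above.

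**Figure D3:**
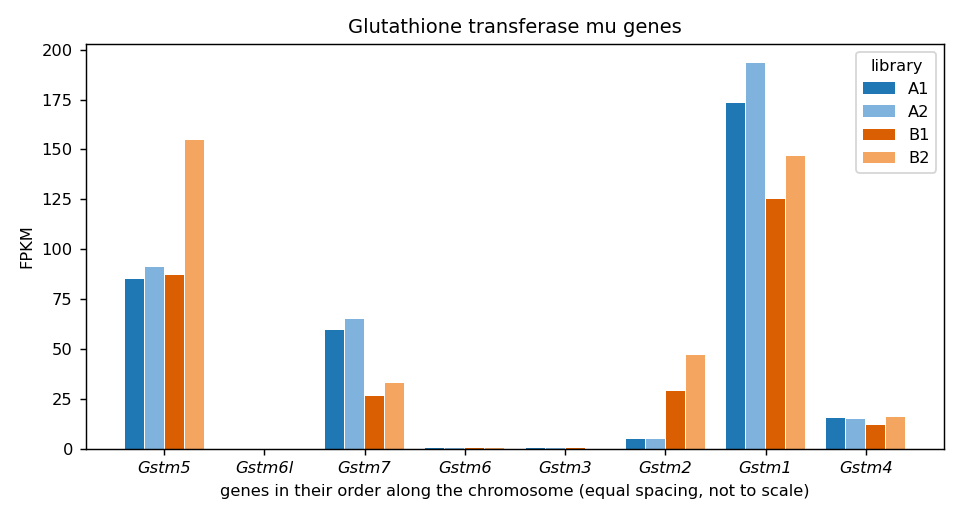
FPKM (bars from 0) of the 8 mu class glutathione transferase genes in their order on the chromosome, spaced equally, in the libraries A1, A2, B1 and B2. *Gstm7* falls from 59.6 to 65.1 FPKM in A to 26.3 to 32.9 in B, and *Gstm2* runs the other way, from 4.87 to 4.96 in A to 29.0 to 47.2 in B.

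The bases just before the starts of *Gstm5*, *Gstm7*, *Gstm2* and *Gstm1* are shown because these neighbours differ in level and in how they compare between the replicates. Each line gives 70 bases, 5′ to 3′ on the strand of the gene and up to its annotated start in GRCr8, and capitals mark TATAA where it falls in the last 40 bases.
*Gstm5* (chr2:198219699-198219768, plus strand): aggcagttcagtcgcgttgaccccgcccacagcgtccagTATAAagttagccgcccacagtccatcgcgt
*Gstm7* (chr2:198260320-198260389, minus strand): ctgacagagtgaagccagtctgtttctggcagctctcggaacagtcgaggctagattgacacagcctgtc
*Gstm2* (chr2:198316918-198316987, minus strand): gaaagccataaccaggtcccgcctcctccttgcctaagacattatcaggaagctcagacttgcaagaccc
*Gstm1* (chr2:198343384-198343453, minus strand): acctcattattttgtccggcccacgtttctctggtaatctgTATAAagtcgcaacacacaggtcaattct
TATAA began 31 bases before the start of *Gstm5* and 29 before that of *Gstm1*, and these letters were not in the last 40 bases of *Gstm7* and *Gstm2*. The last 40 bases held TATAA in 5 of the 44 genes of the group (11.4%: *Gstm1*, *Gstm5*, *Gstp1*, *Prdx1* and *Sod1*) and in 2.09% of the 7976 genes. Matches to TGACNNNGC lay 113 and 53 bases before the start of *Gstm5* and 14 bases before that of *Gstm7*. None was found in the windows of *Gstm1* and *Gstm2*. The starts are those of the annotation, and initiation at them was not examined here.

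Replicates A and B were next compared for every gene of the group. A gene was counted as higher in 1 replicate where its mean was at least 1 FPKM, the replicate means differed by at least 1 on the log2(FPKM + 1) scale, and the libraries of A and B did not overlap. This scale understates the change of low genes. By this rule 3 of the 51 genes were higher in B (5.88%, against 4.58% of the 10481 gene names that averaged at least 1 FPKM), and 1 was higher in A (1.96% against 1.57%). Both shares are close to those of all genes. *Gstm2* was higher in B by 2.69 on the log2 scale, or 7.76-fold by FPKM. *Gpx7* was higher in B by 1.38 (2.83-fold) and *Sod3* by 1.33 (3.23-fold). *Gstm7* was higher in A, with a log2 difference B minus A of -1.06, or 2.11-fold by FPKM.

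These calls leaned on single libraries to differing degrees. *Gstm2* was counted whichever library was left out, with a log2 difference of 2.34 to 3.03. Without B2, *Gpx7* fell to 0.89 and *Sod3* to 0.58, below the limit. Without A2, *Gstm7* came to -0.99, and without B1 to -0.90. Just under the limit lay *Hmox1*, higher in B by 0.99 on the log2 scale (1.04 without B1 and 1.07 without A2, where it was counted), and *Gpx1*, higher by 0.85.

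**Figure D4:**
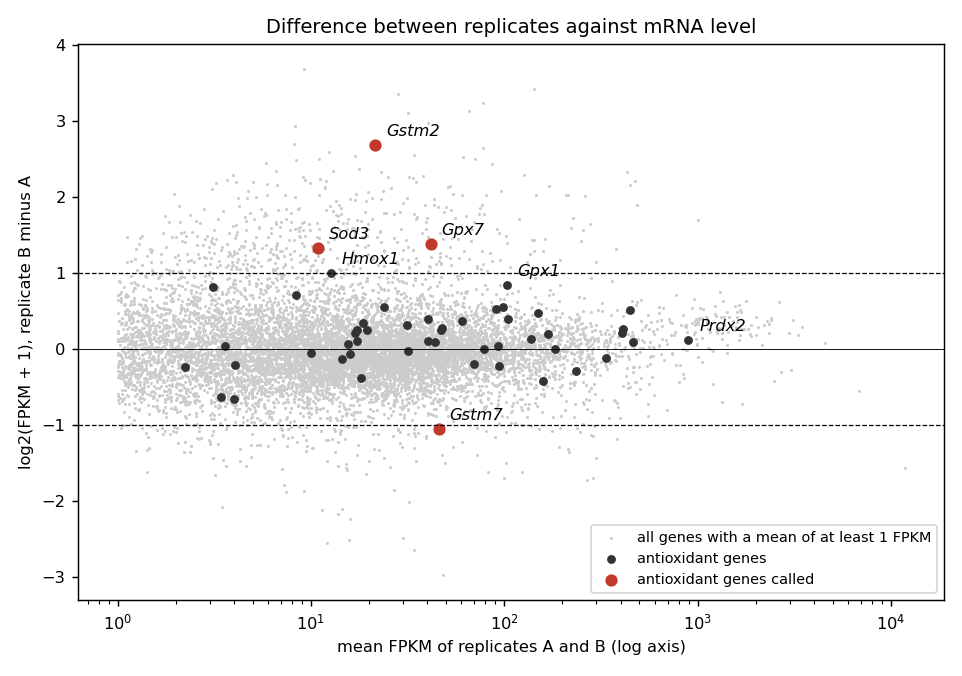
Difference between the replicates, B minus A, in log2(FPKM + 1) (vertical axis) against mean FPKM (log axis) for the 10481 gene names averaging at least 1 FPKM (grey), the 51 antioxidant genes among them (black) and the 4 counted as differing (red), with dashed lines at 1 and -1. *Gstm2* lies at 2.69, *Gpx7* at 1.38, *Sod3* at 1.33 and *Gstm7* at -1.06, while *Prdx2*, the black point with the highest level, lies at 0.12.

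The median log2 difference B minus A over the 51 genes was 0.13, against -0.03 over all 10481 genes. A shift of like size was found between technical libraries: the median of A2 minus A1 was 0.12 over the 51 genes and 0.03 over all genes, and that of B2 minus B1 was 0.08 and -0.01. By itself the group median of B minus A was thus about as large as that of A2 minus A1. Relative to all genes it stood further apart, at 0.13 against -0.03. The values were 0.12 against 0.03 for A2 minus A1 and 0.08 against -0.01 for B2 minus B1. With 2 replicates, whether this exceeds the technical spread was not tested. The median absolute log2 difference over the 51 genes was 0.12 for the A libraries and 0.23 for the B libraries, and between libraries of different replicates it was 0.23 to 0.36, so the B libraries lay as far apart as A2 and B1. Both B libraries lay above both A libraries for 25 of the 51 genes (49.0%, against 28.1% of all genes), and both A libraries above both B libraries for 10 (19.6% against 32.0%). The 51 genes share their libraries, so they do not count as independent observations of the replicates.

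The differences are given next by family, without a test between families. Of all 10481 genes, 28.1% had both B libraries above both A libraries and 32.0% the reverse, the background for the counts below. Of the 5 glutathione peroxidases above 1 FPKM, *Gpx1*, *Gpx7* and *Gpx8* had both B libraries above both A libraries and *Gpx3* the reverse, with a family median of 0.47 on the log2 scale. All 3 genes of *Nqo1* and the heme oxygenases had B above A in every library, with a median of 0.32. *Gclc*, *Gclm* and *Gss* did too, and the median of glutathione synthesis and reduction was 0.30. Of the 6 peroxiredoxins, *Prdx1*, *Prdx4* and *Prdx6* did, and none had A above B throughout (median 0.16). Of the 16 glutathione transferases 10 had the higher mean in B, and 5 genes were higher in all B libraries and 5 in all A libraries, with a median of 0.10. Of the 3 superoxide dismutases, *Sod2* and *Sod3* were higher in all B libraries (median 0.21). Of the 5 thioredoxins and reductases 3 were higher in all B libraries and 1 in all A libraries (median 0.11), and of the 8 remaining proteins with thioredoxin domains 3 and 2 were (median 0.05). *Cat* alone made up a family that was higher in all A libraries, at -0.23. The mRNA of *Txn1* was 1.42-fold and that of *Prdx4* 1.44-fold higher in B. On the log2 scale these differed by 0.51 and 0.52, and *Prdx3* by -0.03. These genes do not stand for their compartments. Both B libraries lay above both A libraries for the mitochondrial *Txn2* and *Sod2*. The libraries of the replicates overlapped for the cytosolic *Sod1* and *Prdx2*.

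The replicates also differed in the markers of cell types. Of 8 markers of neural progenitors all were present, among them *Sox2* at 356 to 592 FPKM. Their summed FPKM was 20949 and 23046 in A1 and A2 and 10054 and 10810 in B1 and B2, and by the rule above 2 of the 8 were higher in A, *Fabp7* and *Hes5*. Most of that sum was *Fabp7*, and the other 7 markers summed to 4149, 4489, 3534 and 5324 FPKM, with B2 highest. Of the 8, *Nes*, *Slc1a3* and *Vim* had the higher mean in B. Of the markers of mesenchymal and meningeal cells, all 9 that were listed were higher in B, 8 of them past the rule, and none was at 0. Their summed FPKM was 695 and 676 in A1 and A2 and 2597 and 3193 in B1 and B2. Among them *Col1a1*, the main chain of fibrous collagen, was at 169, 157, 685 and 785 FPKM. Of the oligodendrocyte lineage, 4 of 6 markers averaged at least 1 FPKM and 1 of these was higher in B (*Pdgfra*, which mesenchymal cells also express), with sums of 253 and 278 in A and 694 and 352 in B. Of the 6 neuronal markers 4 averaged at least 1 FPKM and none of these passed the rule, and the 6 summed to 136 to 173 FPKM. The 4 endothelial markers summed to at most 2.22 FPKM and the 6 markers of microglia and blood to at most 1.51, with *Hbb* at 0 in both B libraries, *Ptprc* at 0 in A1 and *Cx3cr1* at 0 outside B1. The part of the mesenchymal signal in the differences of *Gstm2*, *Gpx7*, *Sod3*, *Gpx8*, *Gpx1* and *Hmox1* was not tested. In such bulk RNA, more cells of a type and more RNA in each cell cannot be told apart.

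Genes that supply or regulate these enzymes but do not belong to the group were listed in the same way. Of 56 such genes 54 were listed and 52 averaged at least 1 FPKM, and 0 of the 52 passed the rule in either direction. Of all 10481 genes, 4.58% were counted as higher in B and 1.57% as higher in A. At those shares few of 52 genes would be counted. The median difference of the 52 genes was 0.10 on the log2 scale. *Nfe2l2*, the gene of NRF2, was at 15.9, 16.4, 16.5 and 18.8 FPKM. *Keap1*, its inhibitor, was at 31.2, 30.3, 31.4 and 28.2. Both stayed within a narrow range in all libraries. *Txnip*, the inhibitor of thioredoxin, was at 125, 121, 209 and 165 FPKM, and *Txn1* was 2.56 to 3.25 times as abundant in every library. *Srxn1*, which restores overoxidized peroxiredoxins, was at 0.689, 0.827, 0.501 and 2.69 FPKM, far below the peroxiredoxins themselves. *Slc7a11*, the cystine importer that feeds glutathione synthesis, was at 19.7, 21.3, 14.5 and 60.8 FPKM, with B2 apart from the other libraries. By list, the median difference was 0.17 for 7 genes of the NRF2 axis, 0.15 for 30 further NRF2 targets and redox partners, 0.14 for 8 enzymes of NADPH supply and -0.22 for 7 genes of selenoprotein synthesis.

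**Figure D5:**
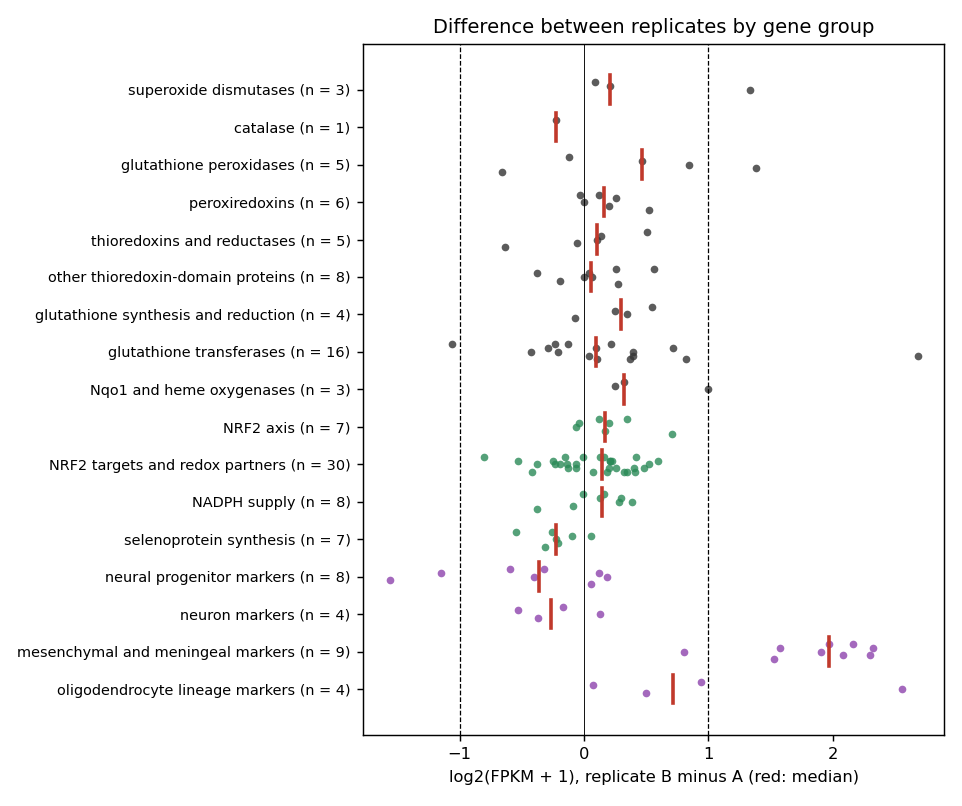
Difference between the replicates, B minus A, in log2(FPKM + 1) for genes averaging at least 1 FPKM (points), by enzyme family (black), other pathway list (green) and cell type marker list (purple), with the median in red and dashed lines at 1 and -1. The mesenchymal and meningeal markers have a median of 1.97, the neural progenitor markers of -0.36, and the medians of the enzyme families lie between -0.23 and 0.47.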

How the data were processed

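PolyA RNA-seq of 4 libraries (replicates A and B, 2 technical libraries each, grouped by the sample labels, the other reading of a supplement's columns not being used) was used, and the Start-seq samples (2) were left aside. The authors aligned reads to rn6 with STAR. The submitters' processing notes also name cutadapt, HISAT and StringTie, with no versions. The deposited FPKM are fragments scaled to transcript length and library depth, the deposited TPM are scaled to a fixed total in each library, and the deposited coverage is read depth not scaled for the library. The authors' methods name Rsubread and DESeq2 for FPKM, while the deposited tables have the layout of StringTie. Fragment counts were not used here, so depth was compared as coverage for each FPKM. Handling of strand and of reads matching several genes was not given in the sources used here.

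FPKM was summed over the loci of a gene name, and technical libraries were averaged within a replicate. Differences were taken on log2(FPKM + 1), with a pseudocount of 1, a minimum mean of 1 FPKM, a minimum difference of 1 and no overlap of libraries. The counting was tested on simulated data. With 1 condition no p-value was computed. Per-library values are given for the 10 genes of highest mean, every gene counted as differing and a list of core enzymes, and the values of *Gstm5*, the overlapping genes and the TATAA search were added after values had been seen. The members, gene lists and rule were chosen with earlier results of these data known. Promoter windows (RefSeq, GRCr8) were matched by symbol for 55 of the 64 genes. Alternatives were a pseudocount of 0.1, other thresholds, TPM in place of FPKM, scaling to a common median, and libraries or replicates left out. Intervals on shares are 95% Wilson intervals over genes, which are not independent. Scripts ran under Python 3.11.15 with numpy 2.4.6, pandas 2.3.3, matplotlib 3.10.9 and scipy 1.17.1.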

Additional observations from a re-analysis of the deposited data

Results flagged for a closer look

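Dixon's 95% limit was applied to 64 sets of 4 libraries: the 51 genes of the group above 1 FPKM and 13 others (family sums and pathway genes). In 5 sets, 3 of them genes of the group, 1 library stood apart, and 4 of the 5 lone values were in B2, the shallow library. The limit is passed by chance in about 1 of 20 sets of independent values, and technical libraries of a replicate are not independent, so that rate is only a guide here. *Gstm5* was at 155 FPKM in B2 and at 85.3 to 91.0 in the others. *Sod3* was at 25.2 FPKM in B2 and at 4.87 to 8.23 in the others. *Slc7a11* was at 60.8 FPKM in B2 against 14.5 to 21.3, and *Srxn1* at 2.69 against 0.501 to 0.827. *Gstt2* was the exception, at 49.4 FPKM in B1 and 41.7 to 42.9 in the others.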

How the results depend on the processing

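In all, 206 alternatives were run over 47 results. Nearly all of these results are levels, sums, counts or shares, which have no direction that could reverse. The result with a sign is the median log2 difference of the group, given below. Leaving out replicate A or B says nothing on the stability of a level, since with 2 replicates it always moves a mean by less than their SD. The 51 genes averaging at least 1 FPKM became 44 at a minimum of 10 FPKM and 59 at any value above 0. The number of genes higher in B was 5 with a pseudocount of 0.1 (*Gstt1* and *Hmox1* added), where 5.87% of all genes were. It was 7 with a log2 difference of at least 0.58 (9.33% of all genes), at which 3 were higher in A (7.19%). Leaving out a library in turn gave 1 to 5 genes higher in B (3.70% to 6.39% of all genes) and 0 to 1 higher in A (1.49% to 2.08%). Only *Gstm2* was counted in B without B2, and none in A without A2 or without B1. The longer promoter core lowered the share of genes with a match from 38.6% to 4.55%, since it allows fewer sequences, and the bases before the start alone gave 27.3%. The median log2 difference of the group stayed above 0 under each alternative run, from 0.08 (TPM) to 0.21 (without B1). TPM in place of FPKM moved 29 of 33 mean levels of single genes, since the units are scaled differently. No paired analysis was possible because there is 1 condition. The coverage of B2, 6.83 for each FPKM, limits the low genes most.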

Other observations

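*Fth1* and *Ftl1*, the ferritin chains that store iron and are known NRF2 targets, were more abundant than any of the antioxidant enzymes, and were chosen after their values were seen. *Fth1* was at 1913, 2207, 2714 and 2729 FPKM in A1, A2, B1 and B2, and *Ftl1* at 1743, 2009, 2002 and 2257. *Slc3a2*, the heavy chain that pairs with the cystine importer, was at 297, 317, 293 and 426 FPKM. *Park7*, which encodes the redox-sensitive protein DJ-1, was at 395, 450, 571 and 424. *Idh2*, the mitochondrial isocitrate dehydrogenase that supplies NADPH, was at 156, 165, 188 and 163. None of these genes passed the rule for a difference between the replicates.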
